A study of Mus musculus with 4 samples.

Results

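The genes described here are 41 genes of autophagy and the lysosome, listed by symbol, and each was found on 1 row of the 4 expression tables, which hold 23234 different symbols on 23700 rows. RNA was sequenced from helper T cells of the spleens of C57BL/6 mice 43 weeks old. Wild-type mice gave 2 libraries (WT 1 and WT 2), and 2 more carry the label RIPK1-KO (KO 1 and KO 2), from mice in which the series design places the deletion in T cells. The sources used here do not give the promoter that drives the deletion. They also do not say whether a group's libraries come from different animals; the p-values thus measure only the spread among the 4 libraries, and that spread may be technical. The word Ctrl stands in the name of all 4 libraries, and its meaning is not given either.

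Autophagy encloses cytoplasm in a double membrane and delivers it to the lysosome, an acid compartment in which proteases, glycosidases and lipases break the contents down. A kinase complex around ULK1 starts the process, a lipid kinase complex with Beclin 1 makes the first membrane, and a conjugation system attaches small ubiquitin-like proteins of the ATG8 family to its lipids. TFEB and TFE3, a pair of related transcription factors, bind short sequences in the promoters of lysosomal and autophagy genes. In T cells autophagy is known for its part in the survival of naive and memory cells, and cathepsin S is known mainly from antigen-presenting cells. Glb1 encodes the lysosomal beta-galactosidase whose activity is widely used as a stain for senescent cells.

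Each value is an FPKM, the fragments of a gene scaled by transcript length and by the mapped total of the library. From the steps between the lowest values, the depth was estimated at 21200000 (WT 1), 22000000 (WT 2), 17600000 (KO 1) and 18900000 fragments (KO 2). T cell markers were high in every library, with Cd4 at 86.3, 87.3, 211 and 185 FPKM in WT 1, WT 2, KO 1 and KO 2. Of the CD8 markers Cd8a was at most 0.764 FPKM, while Cd8b1 stood at 10.9, 10.5, 10.3 and 11.3 FPKM. The targeted gene did not follow the label. Ripk1 stood at 5.61 and 5.60 FPKM in wild-type cells against 10.4 and 9.54 FPKM in the KO-labelled libraries (limma adjusted p = 0.0262; 0.222 after the trimmed-mean scaling described below). The deleted exons are not named in those sources, and each direction stated here refers to the label.

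As deposited, 12 of the 39 members that could be tested were higher in the KO-labelled libraries (30.8%), and 0 were lower. The members with the largest changes were Grn (progranulin), Ctsb (cathepsin B), Gabarapl1 (a member of the ATG8 family), Glb1 and Tfe3. Over all 11074 genes tested, 25.6% were called higher and 1.0% lower (limma, adjusted p under 0.05), so the share of members called higher lay near that of all genes. The median member changed by 0.54 on the log2(FPKM + 1) scale, against 0.38 for the median gene, a gap of 0.16 that may be set beside a spread between replicate libraries of 0.106 (SD). Both KO-labelled libraries lay above both wild-type libraries for 28 of the 39 members (71.8%), against 58.5% of all genes tested, and both lay below for 1 member, against 12.1%. The 2 members that were not tested, Wipi1 and Atp6v0a1, stayed under 1 FPKM in every library.

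Since most genes had larger values in the KO-labelled libraries, the list was also read after trimmed-mean scaling, which sets the bulk of the genes level between libraries and brings the median gene to -0.01. After it 4 members were higher (10.3%), Grn, Ctsb, Gabarapl1 and Tfe3, against 4.68% of all genes, and 2 were lower (5.13%), Npc2 and Gabarapl2, against 5.2%. After quantile normalization, which gives all libraries the same distribution, Grn and Ctsb were higher, against 1.62% of all genes, and 0 members were lower, against 0.695%; at an unadjusted limma p under 0.05 the counts were 8 and 3, beside 1795 and 1947 of all genes. The median member lay 0.16 above the median gene under each of the 3 scalings. Trimmed-mean scaling divides each library by a factor of its own, which shifts most genes nearly alike, so it could hardly change this gap. The calls depended on WT 1: without it 0 members were called, while 9 of all 10915 genes tested (0.0825%) were called higher. At an unadjusted limma p under 0.05 that fit had 14 members higher and 1 lower, beside 3069 and 340 of all genes. Leaving out WT 2, KO 1 or KO 2 gave 14, 8 and 8 members called higher, beside 20.1%, 15.4% and 18.9% of all genes, and of these members 9, 7 and 7 were among the 12. Grn, Ctsb, Gabarapl1, Glb1, Tfe3 and Lamp2 were called in each of these 3 fits, whereas Npc1 and Asah1 were called in none of them, Wipi2 and Ctsa only without WT 2, Mcoln1 only without KO 2, and Ulk1 in all but that without KO 2. Without WT 1 the median member lay 0.04 above the median gene, and without WT 2 it lay 0.29 above. WT 2 was above WT 1 in 38 of the 41 members. The share over all genes was not counted. The bulk of the genes was higher in WT 2 too, with trimmed-mean factors of 0.791 (WT 1) and 0.905 (WT 2).

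**Figure D1:**
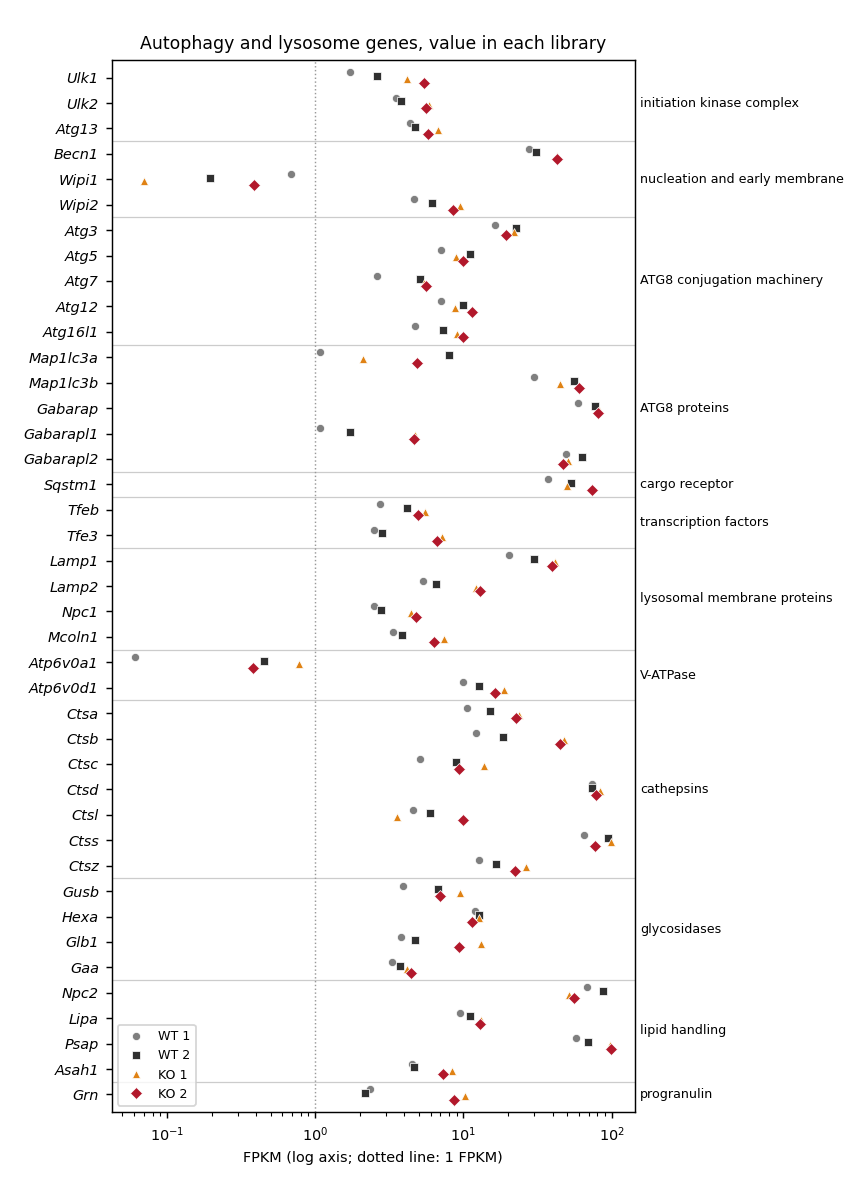
FPKM of the 41 members in each library on a log axis, grouped by role, with circles and squares for the wild type and triangles and diamonds for the KO-labelled libraries. Grn, Ctsb, Gabarapl1, Glb1 and Tfe3 show both KO symbols clearly to the right of both wild-type symbols, Npc2 shows them to the left, and Wipi1 and Atp6v0a1 lie left of the dotted line at 1 FPKM.

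Among the starters of autophagy, the kinase gene Ulk1 was higher in the KO-labelled libraries. It stood at 1.73 and 2.62 FPKM in the wild-type libraries, and 4.13 and 5.43 FPKM were found in those labelled KO. The groups did not overlap, and the log2 change was 0.87 ± 0.22 (SE, limma adjusted p = 0.0315), or 0.51 after trimmed-mean scaling, where it did not pass (limma adjusted p = 0.144). Its paralogue Ulk2 was at 3.50 and 3.79 FPKM against 5.90 and 5.61 FPKM and narrowly missed the threshold (limma adjusted p = 0.0539). Atg13, the scaffold of the kinase complex, was at 4.34 and 4.71 FPKM against 6.73 and 5.73 FPKM (limma adjusted p = 0.143), a change equal to that of the median gene to within 0.01.

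Becn1, which encodes Beclin 1, was the most abundant of the early membrane genes. Its values were 27.5 and 30.9 FPKM in wild-type cells against 42.9 and 42.8 FPKM in the KO-labelled libraries. The groups stood apart, but the difference did not pass (limma adjusted p = 0.0837). Wipi2, which binds the lipid made by the Beclin 1 complex and recruits the conjugation machinery, was at 4.61 and 6.09 FPKM against 9.50 and 8.53 FPKM. It passed as deposited (log2 change 0.66, limma adjusted p = 0.0465) and not after trimmed-mean scaling (0.24, limma adjusted p = 0.323). Its relative Wipi1 was at 0.692, 0.196, 0.0703 and 0.387 FPKM in the 4 libraries, with no order between the groups.

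None of the 5 conjugation genes passed as deposited (limma), and 0 passed after either other scaling. Atg3, the enzyme that transfers ATG8 proteins to lipid, was at 16.4 and 22.5 FPKM in wild-type cells against 21.9 and 19.4 FPKM in the KO-labelled libraries. Atg5, a subunit of the ligase, was at 7.11 and 11 FPKM against 8.97 and 9.87 FPKM. In both genes the groups overlapped, and the 95% intervals of the log2 change were -0.43 to 0.62 and -0.48 to 0.63 as deposited; the estimates of 0.10 and 0.08 turned to -0.36 and -0.35 after trimmed-mean scaling. Atg12, which is joined to the Atg5 protein, also overlapped between the groups (7.02 and 9.87 against 8.74 and 11.4 FPKM). Atg7, the activating enzyme of the system, was at 2.60 and 5.12 against 5.39 and 5.60 FPKM, and Atg16l1, which places the ligase on the membrane, at 4.71 and 7.23 against 9.08 and 9.99 FPKM. These last genes did not overlap, with limma adjusted p = 0.217 for Atg7 and 0.0808 for Atg16l1.

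Within the ATG8 family, 1 of 5 genes was called higher as deposited. Gabarapl1 was at 1.07 and 1.72 FPKM in wild-type cells against 4.73 and 4.64 FPKM in the KO-labelled libraries. The groups were far apart, with a ratio of means of 3.36 and a change of 1.26 ± 0.20 on the log2 scale (SE, limma adjusted p = 0.0139), and the call held after trimmed-mean scaling (0.93, limma adjusted p = 0.0432) but not after quantile normalization (0.84). Gabarapl2, a much more abundant paralogue, was at 49.3 and 63.1 against 50.5 and 46.9 FPKM. Its groups overlapped as deposited (log2 change -0.19, limma adjusted p = 0.529), while after trimmed-mean scaling it passed as lower (-0.67, limma adjusted p = 0.0492). The ratio of Gabarapl1 to Gabarapl2 within a library does not change when a library is multiplied by 1 factor, as in trimmed-mean scaling, though it does under quantile normalization. As deposited it was 0.0217 and 0.0273 in wild-type cells against 0.0937 and 0.0989 in the KO-labelled libraries. Gabarapl2 was thus the larger of the pair in every library, and the gap between them was narrower in both KO-labelled libraries.

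The abundant ATG8 genes did not pass as deposited. Gabarap, the founding member of its branch, was at 59.1 and 77.0 FPKM against 81.7 and 80.7 FPKM (limma adjusted p = 0.405). Map1lc3b, whose protein LC3B is the usual marker of autophagosomes, was at 30.1 and 55.6 FPKM against 44.7 and 60.5 FPKM, with overlapping groups (limma adjusted p = 0.455). Map1lc3a varied most between replicates, at 1.07 and 7.97 FPKM in wild-type cells against 2.09 and 4.83 FPKM in the KO-labelled libraries, and the 95% interval of its change ran from -1.57 to 1.53. The log2 changes of Gabarap and Map1lc3b were 0.26 and 0.34 as deposited and -0.21 and -0.13 after trimmed-mean scaling. Sqstm1, the cargo receptor p62, stood at 37.4 and 53.1 FPKM against 49.8 and 73.7 FPKM. KO 1 lay below WT 2 there, and the change of 0.44 did not pass (limma adjusted p = 0.273; interval -0.24 to 1.11).

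The transcription factor Tfe3 was higher, and its partner Tfeb did not pass. Tfe3 was at 2.48 and 2.84 FPKM in wild-type cells against 7.15 and 6.68 FPKM in the KO-labelled libraries. The groups did not overlap, the ratio of means was 2.60, and the change passed as deposited (1.11 ± 0.17 SE, limma adjusted p = 0.0136) and after trimmed-mean scaling (0.73, limma adjusted p = 0.0467). After quantile normalization it was 0.65 and did not pass. Tfeb was at 2.72 and 4.14 FPKM against 5.51 and 4.92 FPKM, also without overlap (log2 change 0.51, limma adjusted p = 0.117). Tfe3 was below Tfeb in both wild-type libraries, with ratios of 0.911 and 0.687, and above it in both KO-labelled libraries, with ratios of 1.30 and 1.36.

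TFEB and TFE3 are known to bind promoter sequences built around CACGTG, so the promoters of the members were searched for these letters. Such sequences are known from lysosomal and autophagy genes, so their share among the members is not a result of these libraries. The windows run from 250 bases before to 50 bases after each gene start (RefSeq, build GRCm38.p6; the submitters' processing notes name mm8 for this series). A window was found for 34 of the 41 members. CACGTG, which reads the same on both strands, stood in the windows of 11 of the 34 members (32.4%), against 12.0% of the 7756 tested genes with a window and 7.15% of all 32851 windows. The longer TCACGTGA, which contains it, stood in 5 members (14.7%: Atg3, Atp6v0d1, Ctsa, Ctsd and Mcoln1), against 2.50% of the tested genes and 0.974% of all windows. TCACGTGA with a G before it and a C after it, the consensus known as the CLEAR element, stood in 0 of the 34 members, against 0.941% of the tested genes and 0.326% of all windows. Among 89 windows of the other pathway genes described further on, the 3 motifs stood in 20.2%, 7.87% and 2.25%, from the shortest to the longest. Of the 9 members called higher that had a window, 3 held CACGTG (Ctsa, Glb1 and Mcoln1), and of the 23 not called, 8 did. Grn, Gabarapl1 and Tfe3 had windows without it, and Ctsb was among the 7 members with no window.

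These 5 promoters are shown because they hold the letters and include genes that were called and genes that were not. Each run gives the 120 bases before the gene start, 5′ to 3′ on the strand of the gene, with every CACGTG in capitals. Mcoln1, Ctsa and Glb1 were called higher as deposited, Lamp1 and Ctsd were not.
Mcoln1, chr8:3500399-3500518, plus strand: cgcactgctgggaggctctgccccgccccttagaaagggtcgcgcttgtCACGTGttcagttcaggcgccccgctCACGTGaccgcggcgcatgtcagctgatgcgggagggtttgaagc
Ctsa, chr2:164833653-164833772, plus strand: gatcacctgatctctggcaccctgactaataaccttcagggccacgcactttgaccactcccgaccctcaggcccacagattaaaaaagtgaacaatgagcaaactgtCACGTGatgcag
Glb1, chr9:114400958-114401077, plus strand: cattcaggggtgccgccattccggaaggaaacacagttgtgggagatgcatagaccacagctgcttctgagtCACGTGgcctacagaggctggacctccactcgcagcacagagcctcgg
Lamp1, chr8:13159041-13159160, plus strand: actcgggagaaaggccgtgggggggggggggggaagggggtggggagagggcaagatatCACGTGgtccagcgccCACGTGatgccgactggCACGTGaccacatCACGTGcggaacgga
Ctsd, chr7:142387828-142387947, minus strand: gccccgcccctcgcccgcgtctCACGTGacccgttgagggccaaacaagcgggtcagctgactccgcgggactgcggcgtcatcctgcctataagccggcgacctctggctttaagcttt
Lamp1 held 4 copies, beginning 61, 45, 28 and 15 bases before its start, and Mcoln1 held 2, at 71 and 45 bases. Ctsa, Glb1 and Ctsd held 1 copy each in this stretch, at 12, 48 and 98 bases. A match of letters is a description and not a measured binding site.

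Of the 4 genes for lysosomal membrane proteins, 3 were higher as deposited. Lamp2, one of the heavily glycosylated proteins that line the membrane, stood at 5.32 and 6.48 FPKM in wild-type cells against 12.2 and 13.0 FPKM in the KO-labelled libraries. The groups were well apart (log2 change 0.99 ± 0.18 SE, limma adjusted p = 0.0171), but the call ended after trimmed-mean scaling (0.56, limma adjusted p = 0.0680). Mcoln1, the calcium channel of the lysosome, was at 3.34 and 3.86 against 7.37 and 6.33 FPKM (0.77, limma adjusted p = 0.0259). Npc1, which exports cholesterol from the lysosome, was at 2.51 and 2.78 against 4.44 and 4.76 FPKM (0.62, limma adjusted p = 0.0387). After trimmed-mean scaling the changes of Mcoln1 and Npc1 were 0.37 and 0.25 and did not pass. Lamp1, the more abundant relative of Lamp2, was at 20.2 and 29.7 against 41.4 and 39.4 FPKM, a change of 0.70 that missed the threshold (limma adjusted p = 0.0709).

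The proton pump that acidifies the lysosome was represented by a pair of subunits of its membrane part. Atp6v0d1 was at 9.91 and 12.8 FPKM against 18.9 and 16.4 FPKM, without overlap (limma adjusted p = 0.0712). Atp6v0a1, 1 of several alternative versions of the largest subunit, was at 0.0612 and 0.45 against 0.781 and 0.383 FPKM. With a transcript of up to 4008 bases and the depths above, these low values rest on about 4.94 to 52.4 fragments.

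The cathepsins ranged from Ctsb, which passed under all 3 scalings, to Ctss, whose groups overlapped. Ctsb, a cysteine protease, was at 12.2 and 18.5 FPKM in wild-type cells against 47.6 and 44.8 FPKM in the KO-labelled libraries. Both KO-labelled libraries lay at more than the sum of the wild-type values, and the log2 change was 1.56 ± 0.24 (SE, limma adjusted p = 0.0139), 1.1 after trimmed-mean scaling (limma adjusted p = 0.0315) and 1.21 after quantile normalization. Without WT 1 it was 1.28 and did not pass (limma adjusted p = 0.0835). Ctsa, a serine carboxypeptidase that also protects other lysosomal enzymes, was at 10.6 and 15.1 against 23.8 and 22.7 FPKM (0.82, limma adjusted p = 0.0378; 0.37 and not passed after trimmed-mean scaling).

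The other 5 cathepsin genes did not pass. Ctss, the cysteine protease best known from antigen-presenting cells, was at 65.4 and 95 FPKM against 98.4 and 76.9 FPKM. Ctsd, an aspartic protease, was at 73.6 and 73.2 against 83.2 and 78.6 FPKM. These were the most abundant cathepsin genes, and their estimates of 0.14 each as deposited were both -0.34 after trimmed-mean scaling. Ctsz was at 12.7 and 16.5 against 26.4 and 22.2 FPKM and just missed the threshold (limma adjusted p = 0.0537), and Ctsc, which activates granzymes, was at 5.13 and 8.85 against 13.7 and 9.28 FPKM (limma adjusted p = 0.128). Ctsl was the least regular, at 4.58 and 5.97 against 3.56 and 9.94 FPKM, so that the KO-labelled libraries lay on both sides of the wild type. As deposited, the ratio of Ctsb to Ctss within a library was 0.186 and 0.195 in wild-type cells against 0.484 and 0.583 in the KO-labelled libraries.

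**Figure D2:**
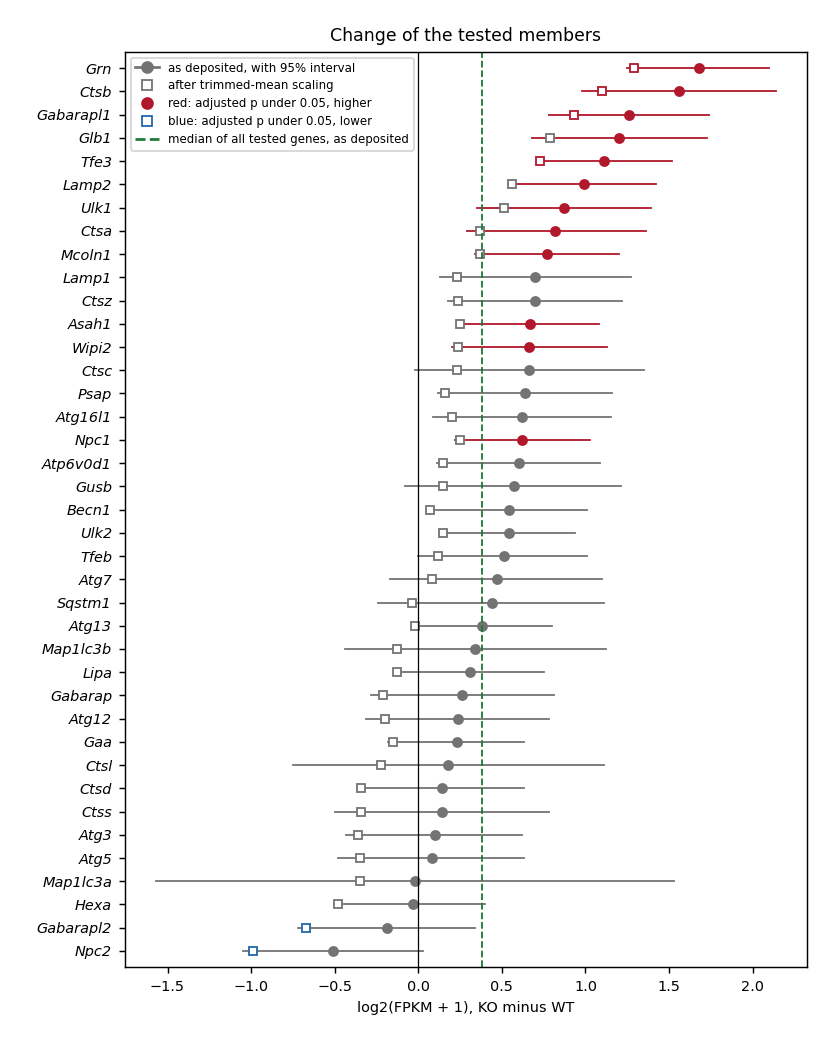
Log2 change of each of the 39 tested members as deposited (circles, with 95% limma intervals) and after trimmed-mean scaling (open squares), ordered by the change as deposited. The dashed line is the median of all tested genes as deposited, at 0.38, and 4 open squares are red (Grn, Ctsb, Gabarapl1 and Tfe3) and 2 blue (Gabarapl2 and Npc2).

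Of the glycosidases, Glb1 was the 1 called. It stood at 3.77 and 4.71 FPKM in wild-type cells against 13.1 and 9.26 FPKM in the KO-labelled libraries. The groups did not overlap and the ratio of means was 2.63, with a change of 1.20 ± 0.22 on the log2 scale (SE, limma adjusted p = 0.0165). After trimmed-mean scaling the change of 0.79 narrowly missed the threshold (limma adjusted p = 0.0534). Gusb, the beta-glucuronidase, was at 3.89 and 6.75 against 9.49 and 6.90 FPKM (limma adjusted p = 0.156). Gaa, which splits glycogen, was at 3.31 and 3.72 against 4.18 and 4.40 FPKM (limma adjusted p = 0.330), and Hexa, a subunit of the hexosaminidase that degrades gangliosides, overlapped at 12.0 and 12.7 against 12.8 and 11.4 FPKM (interval -0.46 to 0.40). Hexa and Gaa thus lay 0.41 and 0.15 below the median gene, while Glb1 lay 0.82 above it.

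The genes of lipid handling did not share a direction. Asah1, the acid ceramidase, was higher at 8.42 and 7.31 FPKM in the KO-labelled libraries against 4.5 and 4.65 FPKM in the wild type (log2 change 0.67, limma adjusted p = 0.0341; 0.25 and not passed after trimmed-mean scaling). Psap, the precursor of the saposins that help enzymes reach their lipids, was at 57.2 and 69.2 against 98.0 and 99.1 FPKM, without overlap (limma adjusted p = 0.0706). Lipa, the acid lipase, was at 9.55 and 11.1 against 13.2 and 12.9 FPKM (limma adjusted p = 0.229).

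Npc2, the soluble protein that hands cholesterol to NPC1, was the 1 member with both KO-labelled libraries below both wild-type libraries. It was at 68.0 and 87.3 FPKM in wild-type cells against 51.7 and 55.8 FPKM in the KO-labelled libraries. The change of -0.51 did not pass as deposited (limma adjusted p = 0.133), but it passed as lower after trimmed-mean scaling, at -0.99 (limma adjusted p = 0.0291), and was -0.79 after quantile normalization. The ratio of Npc1 to Npc2 was 0.0369 and 0.0318 in wild-type cells against 0.0858 and 0.0852 in the KO-labelled libraries. Npc2 therefore stayed the more abundant of these partners in each library, by a smaller factor in the KO-labelled libraries.

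Grn, whose product progranulin is secreted and carried to the lysosome together with prosaposin, showed the largest change of all members. It was at 2.36 and 2.16 FPKM in wild-type cells against 10.3 and 8.59 FPKM in the KO-labelled libraries. The 2 libraries of each group lay close together, and the ratio of means was 4.18 (log2 change 1.68 ± 0.18 SE, limma adjusted p = 0.0106), rank 207 among the rises of 11074 genes. The call held after trimmed-mean scaling (1.29, limma adjusted p = 0.0212) and quantile normalization (1.23). Without WT 1 the log2 change was 1.72, and the call ended. The ratio of Grn to Psap was 0.0413 and 0.0312 in wild-type cells against 0.105 and 0.0867 in the KO-labelled libraries.

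**Figure D3:**
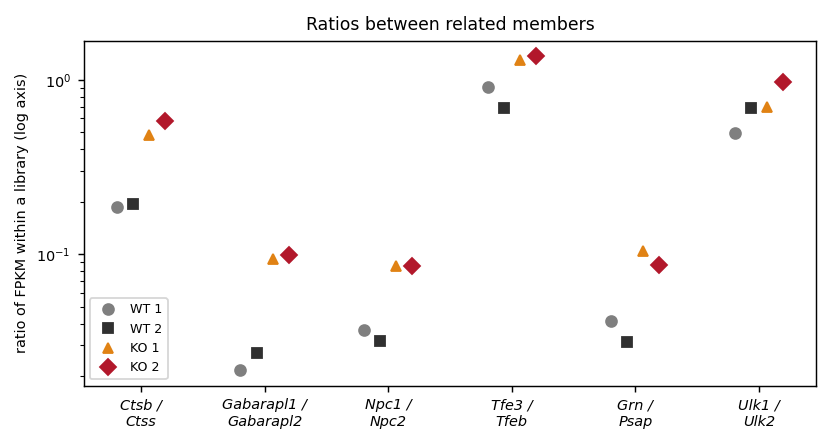
Ratio of the FPKM of related members within each library, on a log axis, for pairs chosen after their values were seen and given without a test. For all 6 pairs both KO-labelled libraries lie above both wild-type libraries, although for Ulk1 to Ulk2 KO 1 (0.7) is close to WT 2 (0.692).

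The counts of the arms of the pathway follow, and the difference between them was not tested. As deposited, 25.6% of all genes tested were higher. Of 16 tested genes of the autophagy machinery 3 were higher (18.8%: Ulk1, Wipi2 and Gabarapl1), with a median 0.03 above the median gene. Of 21 tested lysosomal genes 8 were higher (38.1%), with a median 0.26 above the median gene. After trimmed-mean scaling 1 autophagy gene (6.25%) and 2 lysosomal genes (9.52%) were higher, against 4.68% of all genes. In each arm 1 gene was lower, against 5.2% of all genes. The medians then lay 0.02 below and 0.24 above the median gene.

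A further 116 genes of the same pathways were read beside the members, and 103 of them could be tested. As deposited 34 were higher (33.0%) and 0 lower, against 25.6% and 1.0% of all genes. Trimmed-mean scaling gave 4 higher (3.88%) and 2 lower, against 4.68% and 5.2% of all genes. The median of the 103 lay 0.10 above the median gene. As deposited 15 of 34 other autophagy genes (44.1%) and 11 of 32 other lysosomal enzymes (34.4%) were higher. So were 6 of 24 other lysosomal membrane proteins (25.0%) and 2 of 13 other subunits of the proton pump (15.4%). In the same order, trimmed-mean scaling left 1, 1, 2 and 0 higher. The medians of the first 3 lists lay 0.25, 0.14 and 0.05 above the median gene as deposited, and that of the proton pump list stood at -0.02 relative to it. The autophagy list thus had the largest median there, unlike among the members. The difference between these lists was not tested. Without WT 1, 0 of 103 were called higher and 0 lower, against 39 and 1 at an unadjusted limma p under 0.05, where all genes gave 3069 and 340 of 10915. The 4 higher after trimmed-mean scaling were Trp53inp1, Ctse, Abca2 and Laptm5.

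Trp53inp1, a stress-induced gene whose protein binds ATG8 proteins, was at 14.1 and 20.7 FPKM in wild-type cells against 47.8 and 59.7 FPKM in the KO-labelled libraries (limma adjusted p = 0.0139). Laptm5, a lysosomal membrane protein of blood cells that lowers the T cell receptor at the surface, was at 96.9 and 114 against 275 and 244 FPKM (limma adjusted p = 0.0160). Abca2, a lipid transporter of lysosomes, was at 3.88 and 4.22 against 12.3 and 12.2 FPKM (limma adjusted p = 0.0115), and Ctse, an aspartic protease of endosomes, at 2.84 and 3.46 against 7.96 and 9.01 FPKM (limma adjusted p = 0.0133). None of these genes overlapped between the groups.

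Lysosomal genes are abundant in macrophages, so markers of other cells were read in the same libraries. In bulk RNA fewer cells of a type and less RNA per cell cannot be told apart. The 18 macrophage and monocyte markers summed to 3.48 and 5.94 FPKM for the wild type, against 9.50 and 10.7 FPKM under the KO label, and 15 of them stayed under 1 FPKM in every library. Csf1r, the receptor that defines the lineage, was at most 0.354 FPKM, and Cd14, Cd300e, Marco and Spic were listed at 0 in both wild-type libraries. Of the 2 markers tested, Lyz2 was called higher as deposited, at 0.164 and 1.53 against 2.99 and 4.38 FPKM (limma adjusted p = 0.0339), and not after trimmed-mean scaling (limma adjusted p = 0.0958). The other, Cd163, was at 1.36 and 1.5 against 1.19 and 1.06 FPKM, with both KO-labelled libraries below both wild-type libraries (limma adjusted p = 0.453). For Lyz2, Mpeg1, C1qa, C1qb and Fcgr3 both KO-labelled libraries lay above both wild-type libraries. These are 5 of the 18 markers. The 58.5% of all genes tested that lay so is not a like share, since only 2 of the 18 markers were tested. Mpeg1, C1qa, C1qb and Fcgr3 were too low to enter the test, with Mpeg1 at 0.0563 and 0.0982 against 0.864 and 0.453 FPKM. The summed level of the 18 markers was below that of Ctsb alone in each library and above that of Grn in all but KO 1. Such sums do not measure how much of the RNA of Ctsb or Grn came from those cells. The part of such cells in the changes of Ctsb, Grn and Glb1 was not tested.

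Erythroid markers moved with the groups too, at 6.33 and 99.4 FPKM in wild-type cells against 396 and 321 FPKM in the KO-labelled libraries, summed over 10 rows. All 6 erythroid rows that were tested were called higher as deposited (limma), and 2 after trimmed-mean scaling. Neutrophil markers differed within the groups instead, at 4.43 and 44.9 against 21.5 and 52.2 FPKM. B cell markers summed to 21.6 to 27.3 FPKM and dendritic cell markers to 24.8 to 34.5 FPKM, most of the latter from Siglech and Xcr1. Xcr1 was lower in both KO-labelled libraries, at 19.6 and 16.4 against 13.1 and 13.8 FPKM. It passed as lower after trimmed-mean scaling (-0.84, limma adjusted p = 0.0497) and not as deposited. Siglech overlapped between the groups and did not pass. Of the B cell markers Cd79b and Cd22 were called higher as deposited (2 of 4 tested, against 25.6% of all genes), with Cd79b at 0.842 and 0.861 against 3.76 and 3.03 FPKM. Only Cd79b stayed so after trimmed-mean scaling. Fcer2a was lower in both KO-labelled libraries, at 19.2 and 14.8 against 12.4 and 12.4 FPKM, and did not pass (limma adjusted p = 0.166). Cd79a overlapped between the groups (limma adjusted p = 0.509). The 10 T cell markers themselves summed to 1090 and 1400 against 1790 and 1680 FPKM, and 4 of them were called higher as deposited. After trimmed-mean scaling 2 were higher, and Cd3d was lower (-0.76, limma adjusted p = 0.0422). The part of these cells in the members' values was not tested.

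**Figure D4:**
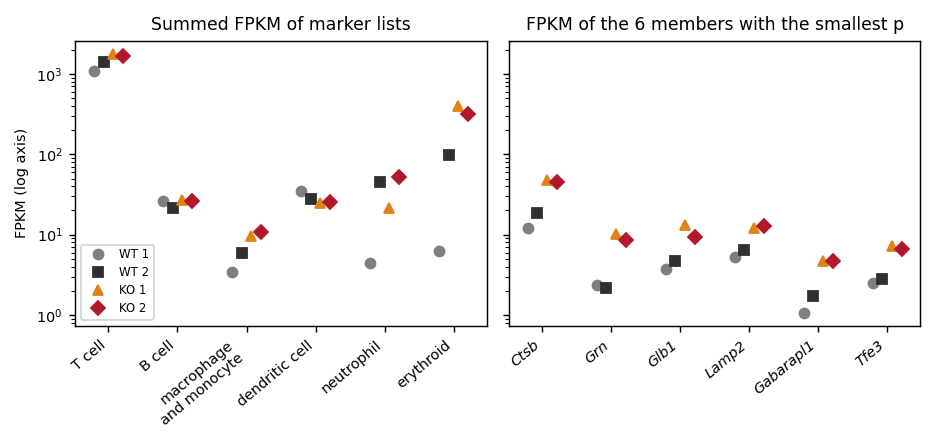
Left, summed FPKM of 6 marker lists in each library; right, FPKM of the 6 members with the smallest p, on the same log axis. Macrophage and monocyte markers sum to between 3.48 and 10.7 FPKM, and erythroid markers run from 6.33 to 396 FPKM.

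Some values share their exons with a neighbour, and the library kit named in the labels does not mark strand. In the GENCODE M21 annotation other genes overlapped the longest transcript of Becn1 over 51.5% of its length, and that of Ctsd over 38.0%. The share was 28.2% for Ctsl, 21.7% for Ctsa and for Sqstm1, 20.7% for Gabarapl1 and 16.3% for Ctsb. It was 12.8% for Hexa, 11.5% for Npc1, 11.2% for Lamp1, 6.89% for Glb1 and 0.694% for Ctsz. The longest transcripts of Grn, Tfe3, Lamp2, Mcoln1, Ulk1, Wipi2, Asah1 and Npc2 were free of such overlap. How fragments that match several ATG8 paralogues were counted is not stated in the labels, so their values are less certain.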

How the data were processed

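The aligner Bowtie 0.12.2 and the build mm8 come per the submitters' processing notes, while the program behind the FPKM is not stated. Each library started from 200 ng RNA, per the labels' protocols. The authors deposited 1 table of FPKM per library, per the file headers. No count test was run, since whole fragments were not recovered: with an assumed fragment of 200 nt, 62.3% to 69.0% of the low values of genes with 1 transcript lay within 5% of a whole number.

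Two-sided tests used limma 3.58.1 under R 4.3.3, its trend option and log2(FPKM + 1), for rows with at least 1 FPKM in at least 2 libraries, with Benjamini-Hochberg adjustment over all 11074 rows and a threshold of 0.05. This scale understates the change of low genes. Folds are ratios of mean FPKM. Trimmed-mean scaling was an own implementation with WT 1 as reference (30% of log ratios and 5% of levels trimmed at each side; library factors 0.791, 0.905, 1.21 and 1.16). No exact permutation of 2 against 2 libraries gives a two-sided p under 0.333. The procedure was tested on simulated data in which a small part of the genes was changed. Those data held no shift common to most genes, so the test does not bear on the shift seen here.

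The members and lists were chosen with earlier results of these data known. All 41 members are described; of the other pathway genes, those named are among the 3 with the smallest p in each list. Of 186 list symbols 7 were matched by synonym and 4 were not matched. Alternatives were each library left out, a replicate block, pseudocounts of 0.1 and 5, other filters, other scalings and no intensity trend. Figures used Python 3.11.15 and matplotlib 3.10.9.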

Additional observations from a re-analysis of the deposited data

How the results depend on the processing

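Over 12 alternative settings, 356 of 462 member results kept their direction and their side of the threshold, 57 no longer passed, 17 newly passed and 32 changed sign. Members called higher (12 as deposited) numbered 0 with no filter, 2 after quantile normalization, 4 after trimmed-mean scaling, and 0 to 14 on leaving out 1 library (0 without WT 1). Members called lower numbered 2 after trimmed-mean scaling, 0 to 0 on leaving out 1 library. All genes called higher numbered 3 with no filter, 179 after quantile normalization, 518 after trimmed-mean scaling, and 9 to 2189 on leaving out 1 library (1611 without KO 1); those called lower numbered 0 with no filter, 576 after trimmed-mean scaling, and 0 to 123 on leaving out 1 library (0 without WT 1, 70 without KO 1). With no filter 20086 rows were tested and 18 members were higher and 1 lower at an unadjusted limma p under 0.05, beside 4604 and 541 of all rows. The member median above the median gene was 0.44 with no filter and 0.04 to 0.29 on leaving out 1 library. The cause of these shifts was not tested. Leaving out 1 library leaves 1 sample in a group, which is assumed to vary like the others.

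With the replicate number as a block, 18 members were higher, the 12 among them, beside 3909 of all genes (35.3%), and 230 of all genes were lower; the labels do not say that the numbers pair the libraries, and the correlation of deviations between same-numbered libraries was 0.108.

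None of the members that changed sign had passed as deposited. After trimmed-mean scaling the log2 changes were -0.20 (Atg12), -0.02 (Atg13), -0.36 (Atg3), -0.35 (Atg5), -0.34 (Ctsd), -0.22 (Ctsl), -0.34 (Ctss), -0.15 (Gaa), -0.21 (Gabarap), -0.13 (Lipa), -0.13 (Map1lc3b) and -0.04 (Sqstm1). After quantile normalization they were -0.20 (Atg12), -0.08 (Atg13), -0.28 (Atg3), -0.37 (Atg5), -0.11 (Ctsd), -0.28 (Ctsl), -0.13 (Ctss), -0.25 (Gaa) and -0.11 (Lipa). With a pseudocount of 0.1 that of Map1lc3a was 0.10. On leaving out 1 library the ranges were -0.12 to 0.31 for Atg3, -0.20 to 0.36 for Atg5, -0.45 to 0.81 for Ctsl, -0.13 to 0.41 for Ctss, -0.11 to 0.05 for Hexa, -1.08 to 1.04 for Map1lc3a and -0.09 to 0.77 for Map1lc3b. The filter of 1 FPKM left out Wipi1 and Atp6v0a1; without it neither passed (limma adjusted p = 0.583 and 0.411).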
